A study of Saccharomyces cerevisiae with 6 samples.

Results

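The genes described here make and process long-chain fatty acids in the yeast Saccharomyces cerevisiae. They are the acetyl-CoA carboxylase gene ACC1, the fatty acid synthase genes FAS1 and FAS2, the desaturase gene OLE1, the elongase genes ELO1, ELO2 and ELO3, the acyl-CoA synthetase genes FAA1 and FAA4, and ACB1, which encodes the acyl-CoA binding protein. They were chosen by name, each read from its brightest probe set among those that the platform table pairs with that gene alone. The 10 genes belong to 5656 genes with such a probe set, and all 10 were among the 4242 genes that remained once the dimmest 25% had been left out.

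Cell populations of strain 3238-32 from static beakers were compared: cells of a floating biofilm at the air-liquid interface (labelled floaters, 3 arrays) and cells that had settled at the bottom (labelled sinkers, 3 arrays). Both groups are labelled MATa, leu2∆1, lys2-801 and ura3-52, and both stood for 48 h at 27°C in 100 ml of medium with 4% ethanol after a 24 h preculture at 30°C in rich medium whose sugar had run out. The floating film was taken off before the cells beneath it. The labels describe triplicate beakers without saying which beaker each array came from. The p-values therefore reflect only how far these samples differ among themselves, which may be technical.

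Values are linear MAS5 signal intensities per probe set. Median signals lay between 128 and 151 on the 6 arrays, and the brightest of 19 control probe sets for genes of other organisms read 16.3 to 44.8. The lowest signal of any of the 10 genes was 268, so none of them was near that background. All of 5 a-cell genes had a probe set. Their summed signal was 64.2 to 99.0 in the biofilm, against 177 to 259 in the bottom layer. STE2, the alpha-factor receptor gene of a cells, lay below the controls on all 6 arrays, BAR1 on 5 and STE6 on 4. MFA1 read 13.9, 18.2 and 6.87 in the biofilm, against 116, 123 and 108 in the bottom layer, above the controls there. MFA2 read 8.13, 7.82 and 64.2 in the biofilm, against 59.4, 113 and 19.1 in the bottom layer. STE3, the receptor gene of alpha cells, was the single alpha-cell gene of 3 with a probe set of its own. It read 1713 to 2210 in the biofilm, against 1056 to 1157 in the bottom layer. The STE3 and STE2 signals go against the MATa label in both groups, while that of MFA1 in the bottom layer does not. LEU2 was bright as well, at 4962 to 5712 in the biofilm, against 7039 to 11805 in the bottom layer, under an allele labelled leu2∆1. The part of the gene which that allele lacks was not stated in the sources used. Among genes of the other labelled alleles, LYS2 read 1044, 818 and 1391 in the biofilm, against 525, 324 and 637 in the bottom layer. URA3 was dim, at 26.3, 32.1 and 32.5 in the biofilm, against 16.9, 15.1 and 16.8 in the bottom layer. It lay below the controls on all 3 bottom layer arrays. Whether these signals match the labelled alleles was not tested. Of 4 early meiosis genes SPO11 and SPO13 lay below the controls on all 6 arrays. IME1 lay below them on 1 array, at 37.4, 33.3 and 19.8 in the biofilm, against 62.1, 98.2 and 68.9 in the bottom layer. IME2 was above them on all 6, at 84.4, 53.5 and 46.5 in the biofilm, against 82.4, 88.3 and 87.4 in the bottom layer. The 4 genes summed to 73.1 to 133 in the biofilm, against 153 to 196 in the bottom layer, and their part in the results was not tested.

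Fatty acid synthesis starts when acetyl-CoA carboxylase turns acetyl-CoA into malonyl-CoA. The cytosolic synthase then builds saturated chains from malonyl-CoA, the desaturase in the endoplasmic reticulum adds a double bond, and elongases lengthen chains there for sphingolipids and other lipids. The desaturation step consumes molecular oxygen, and OLE1 is known in yeast to be turned up when oxygen is short and turned down by unsaturated fatty acids.

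On the brightest probe set of each, the carboxylase gene, both synthase genes, an elongase gene and the acyl-CoA binding protein gene were higher in the biofilm. The desaturase gene and an acyl-CoA synthetase gene were lower. In the limma fit over all 4242 genes 5 of the 10 members were higher in the biofilm (ACC1, FAS1, FAS2, ELO3 and ACB1), 2 were lower (OLE1 and FAA1) and 3 did not pass (ELO1, ELO2 and FAA4) at an adjusted p below 0.05. Over all genes tested 62.5% were called, 38.0% higher and 24.4% lower, so a count of 7 of 10 is close to this background. The median log2 fold change, biofilm over bottom layer, was 0.49 over the members and 0.17 over all genes tested, and the members spanned -2.42 to 1.20. In 7 of 10 members all 3 arrays of a group lay beyond all 3 of the other, as they did in 68.0% of all genes tested. These are bulk samples, so a lower signal from fewer cells and a lower signal from less RNA per cell cannot be told apart.

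**Figure D1:**
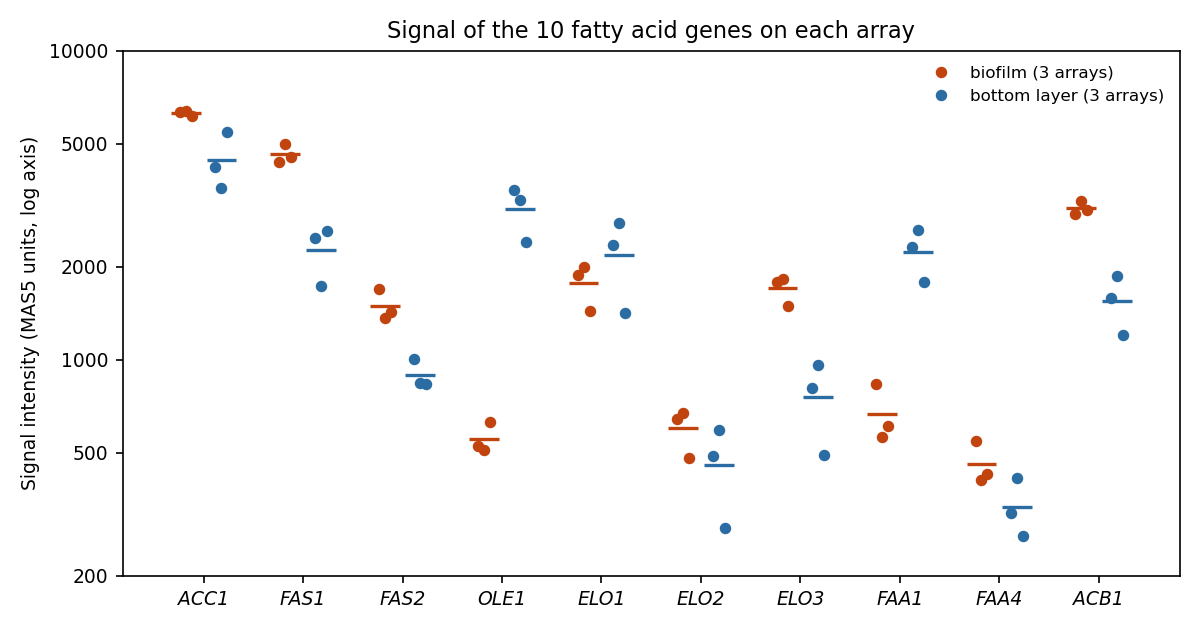
Signal intensity (MAS5 units, log axis) of each of the 10 genes on the 3 biofilm arrays (orange) and the 3 bottom layer arrays (blue), with the group mean as a line. The points of OLE1 and FAA1 lie lower in the biofilm, those of ACC1, FAS1, FAS2, ELO3 and ACB1 lie higher, and those of ELO1, ELO2 and FAA4 overlap between groups. Heights are not comparable between genes.

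On their brightest probe sets the carboxylase and synthase genes were modestly higher in the biofilm. Most dimmer probe sets of FAS1 and FAS2 read lower, as given below. FAS1 encodes the beta subunit of the cytosolic synthase, and its signal was 4365, 4975 and 4522 in the biofilm against 2469, 1736 and 2600 in the bottom layer. All 3 biofilm arrays lay above all 3 bottom layer arrays, and the fold was 2.06 (log2 fold change 1.04, SE 0.18, limma adjusted p = 0.000558). FAS2, which encodes the alpha subunit that carries the growing chain, read 1688, 1368 and 1432 in the biofilm and 1007, 842 and 836 in the bottom layer. Its groups did not overlap either, and it was 1.66-fold higher (log2 fold change 0.73, SE 0.15, limma adjusted p = 0.00168).

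ACC1, whose product makes malonyl-CoA, had the narrowest biofilm values of the 10, at 6350, 6393 and 6142, against 4220, 3606 and 5470 in the bottom layer. The groups were separate, but bottom layer replicate 3 came near the biofilm level, and the fold was 1.44 (log2 fold change 0.53, 95% interval 0.12 to 0.94, limma adjusted p = 0.0287). The call was lost when any of 5 arrays was left out. Without biofilm replicates 1, 2 and 3 the log2 fold change was 0.52, 0.51 and 0.54, close to 0.53, with adjusted p = 0.0734, 0.0781 and 0.0623. Without bottom layer replicates 1 and 2 it was 0.50 and 0.39, with adjusted p = 0.0943 and 0.0906. Without bottom layer replicate 3 it held, with a log2 fold change of 0.69 and adjusted p = 0.00287.

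The changes of FAS1 and FAS2 did not differ beyond the spread between arrays. The difference of their log2 values within an array averaged 1.62 ± 0.25 in biofilm arrays and 1.31 ± 0.30 in bottom layer arrays (SD, n = 3 each), a shift of 0.31 (SE 0.22). An exact two-sided permutation test over the 20 labellings gave p = 0.200 (0.200 after Benjamini-Hochberg adjustment over 6 pairs), and 3 arrays against 3 cannot go below 0.1. Equal change is not shown by this, since the shift ran from 0.17 to 0.47 over the alternatives tried.

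FAS1 and FAS2 have 8 probe sets each that the platform table pairs with them alone, while the other 8 members have 1. The 7 dimmer probe sets of FAS1 all read lower in the biofilm, opposite to the brightest, with log2 fold changes of -2.60 to -0.93, and 6 of them passed the limma test over all probe sets paired with 1 gene. Of the 7 dimmer ones of FAS2, 6 had a negative log2 fold change and 2 of these passed. The weakest of the 6 was -0.035 (SE 0.53), so its sign is not settled. As higher in the biofilm 0 passed in limma, also at an unadjusted p below 0.05. On 1 of the 7 for FAS1 and 2 of the 7 for FAS2 all 3 arrays of at least 1 group lay below the controls, so those values are near background. Every other dimmer set except the brightest of each gene had 1 or 2 arrays of a group below the controls. The folds of these sets thus rest in part on values near background as well.

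The brightest of the dimmer FAS1 sets read 21.2, 44.4 and 1019 in the biofilm, against 540, 956 and 947 in the bottom layer. Biofilm replicate 3 thus stood at the bottom layer level, apart from the other biofilm arrays. The brightest of the dimmer FAS2 sets read 611, 425 and 2326 in the biofilm, against 586, 1129 and 995 in the bottom layer, again with biofilm replicate 3 apart. That array was the brightest of the biofilm in 6 of 7 dimmer sets of FAS1 and in 6 of 7 of FAS2. In the brightest sets it was not, at 4522 for FAS1 and 1432 for FAS2. Which stretch of the gene or which strand each set reads is not given in the sources used here, so the rise of FAS1 and of FAS2 rests on 1 probe set each.

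Dimmer sets that go against the brightest were common on this array. Of 352 dimmer probe sets in the 47 other genes with at least 7 probe sets, 136 (38.6%) had the opposite sign to the brightest set of their gene. Of these 352 sets 81 were called lower in the biofilm and 11 higher. For FAS1 and FAS2 together 13 of 14 had the opposite sign, counting a FAS2 set at -0.035 (SE 0.53). Where the brightest set was higher in the biofilm, as in FAS1 and FAS2, the share among the other genes was 111 of 167 dimmer sets (66.5%).

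**Figure D2:**
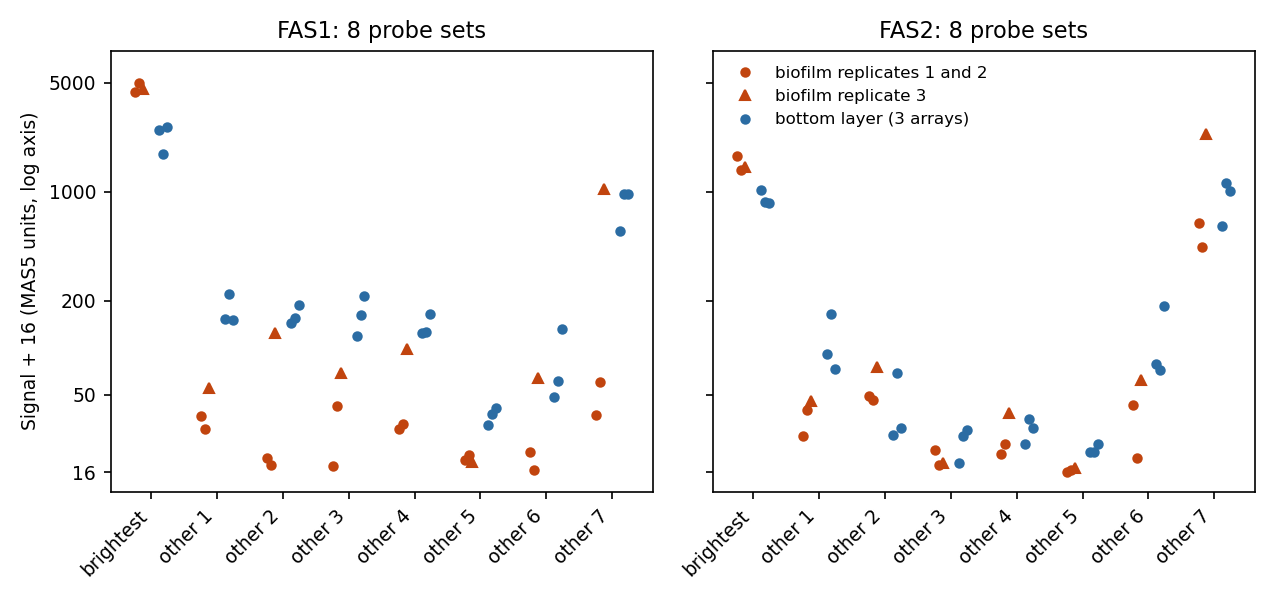
Signal plus 16 (MAS5 units, log axis) on each array for the 8 probe sets of FAS1 (left) and of FAS2 (right), with biofilm arrays in orange (replicate 3 as a triangle) and bottom layer arrays in blue. The brightest set of each gene is higher in the biofilm, while the 7 dimmer sets of FAS1 and 6 of the 7 of FAS2 have a lower biofilm mean on the log scale, and biofilm replicate 3 often stands above the other biofilm arrays.

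OLE1, the only fatty acid desaturase gene of this yeast that places the first double bond, fell most of the 10. Its signal was 528, 511 and 628 in the biofilm against 3552, 3283 and 2406 in the bottom layer. The highest biofilm array was far below the lowest bottom layer array, and the fall was 5.37-fold (log2 fold change -2.42, 95% interval -2.81 to -2.03, limma adjusted p = 2.11e-06). By p-value it stood at rank 100 of 4242, and 2.22% of genes tested had a lower log2 fold change. The value ran from -2.68 to -2.31 over 16 alternative settings and passed in each.

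On their brightest probe sets OLE1 was lower and FAS1 higher within the same arrays. The log2 difference OLE1 minus FAS1 was -3.01, -3.24 and -2.82 in the biofilm and 0.52, 0.91 and -0.11 in the bottom layer. The shift of -3.47 (SE 0.32) corresponds to an 11.0-fold change in the ratio of desaturase to synthase signal. The groups did not overlap, and the exact two-sided permutation p was 0.1, the smallest this design can give (0.120 adjusted over the 6 pairs). Read from the 7 dimmer probe sets of FAS1, an alternative chosen after seeing the data, the shift ran from -1.50 to 0.18, so the opposite direction and the size hold for the brightest FAS1 set only.

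The transcription factors Mga2 and Spt23 are made as membrane-bound precursors, are released after ubiquitin is attached by Rsp5, and then activate OLE1. Of 7 genes for these activators and their processing 6 were tested, of which 2 were lower, 4 did not pass and 0 were higher in the limma fit, also at an unadjusted p below 0.05 (median log2 fold change -0.08, beside 0.17 over all genes tested). Over all genes tested 24.4% were lower, 38.0% higher and 62.5% called in either direction. MGA2 read 163, 138 and 156 in the biofilm against 393, 346 and 368 in the bottom layer, a 2.29-fold fall with separate groups (limma adjusted p = 0.000109). SPT23 read 225, 174 and 204 in the biofilm against 192, 238 and 171 in the bottom layer, with overlapping groups and a log2 fold change of 0.01 (95% interval -0.40 to 0.42, limma adjusted p = 0.964). SPT23 and UBX2 were named after their values were seen.

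The ubiquitin ligase gene RSP5 read 125, 92.0 and 74.2 in the biofilm against 225, 580 and 180 in the bottom layer. It was lower (log2 fold change -1.45, limma adjusted p = 0.00506), but bottom layer replicate 2 stood apart, and without it the log2 fold change was -0.97 (adjusted p = 0.00299). UFD1 and CDC48, which encode parts of the complex that pulls the ubiquitin-marked factor free, had log2 fold changes of -0.17 and 0.10 (limma adjusted p = 0.454 and 0.629). UBX2, whose product takes part in this processing at the membrane, was too dim to be tested, at 27.5, 25.1 and 31.5 in the biofilm against 45.5, 62.6 and 52.8 in the bottom layer. With no filter on dim genes it passed as lower (log2 fold change -0.66, limma adjusted p = 0.0110).

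Of the 3 elongase genes ELO3 was higher in the biofilm, and ELO1 and ELO2 did not pass. ELO3, needed for the longest chains of sphingolipids, read 1786, 1828 and 1493 in the biofilm against 808, 965 and 493 in the bottom layer. The groups were separate and the gene was 2.30-fold higher (log2 fold change 1.20, SE 0.23, limma adjusted p = 0.000890). ELO2, which lengthens chains before Elo3 acts, read 644, 674 and 480 in the biofilm against 489, 591 and 285 in the bottom layer, with overlapping groups (log2 fold change 0.43, 95% interval -0.13 to 0.99, limma adjusted p = 0.158). ELO1, which acts on shorter chains, read 1882, 1997 and 1441 in the biofilm against 2357, 2765 and 1413 in the bottom layer, again with overlap (log2 fold change -0.25, 95% interval -0.78 to 0.28, limma adjusted p = 0.375).

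The values of both genes depended on which bottom layer array was left out, in either direction. Without bottom layer replicate 2, ELO2 passed as higher (log2 fold change 0.64, adjusted p = 0.0349), but without replicate 3 it was 0.14 (adjusted p = 0.549). Without bottom layer replicate 3, ELO1 passed as lower (log2 fold change -0.54, adjusted p = 0.0258), but without replicate 2 it was -0.055 (adjusted p = 0.850). Neither passed with any other single array left out. The 3 genes shared a pattern among replicates: in each, bottom layer replicate 2 was the highest and replicate 3 the lowest of the bottom layer, and replicate 3 the lowest of the biofilm.

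Within an array the elongase genes therefore kept narrow differences that shifted between groups. ELO1 minus ELO2 was 1.54 ± 0.016 in biofilm arrays and 2.23 ± 0.025 in bottom layer arrays on the log2 scale (SD, n = 3 each), a shift of -0.68 (SE 0.017). ELO1 minus ELO3 was 0.050 ± 0.091 in biofilm arrays and 1.51 ± 0.019 in bottom layer arrays, a shift of -1.46 (SE 0.054). ELO2 minus ELO3 was -1.49 ± 0.10 in biofilm arrays and -0.72 ± 0.033 in bottom layer arrays, a shift of -0.77 (SE 0.061). None of the 3 pairs overlapped between groups, and each had an exact permutation p of 0.1, the smallest possible (0.120 adjusted over the 6 pairs). So the balance among elongase signals moved toward ELO3 in the biofilm by a shift many times the spread between arrays.

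**Figure D3:**
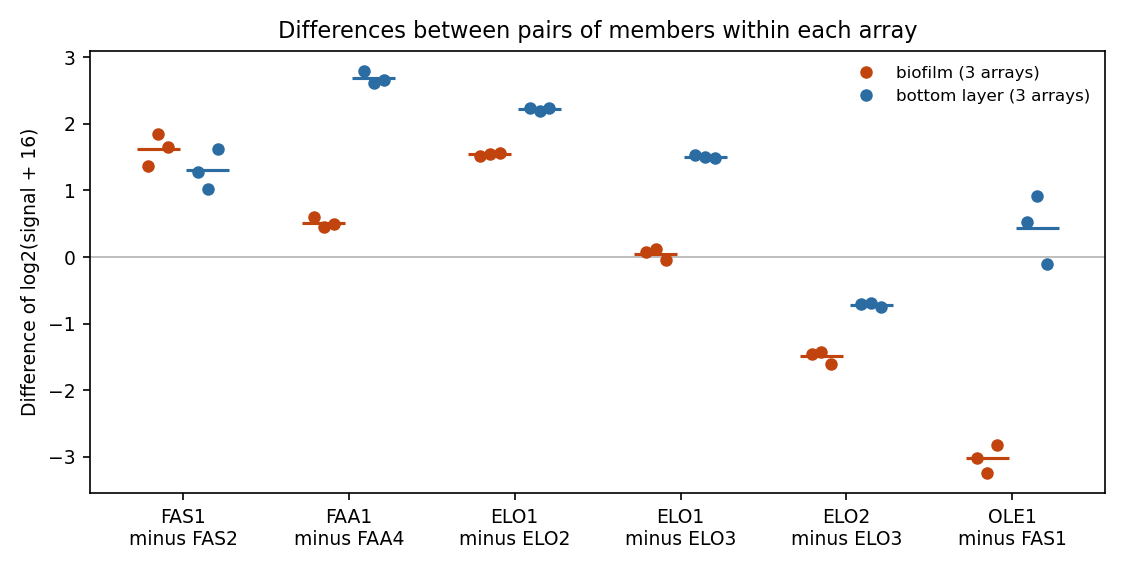
Difference of log2(signal + 16) between 2 genes within each array, for 6 pairs of members, on the 3 biofilm arrays (orange) and the 3 bottom layer arrays (blue), with group means as lines. The groups are separate in all pairs except FAS1 minus FAS2. The heights of the points reflect the probe sets as well as the genes, so the shift between groups is what can be read.

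Elongation in the endoplasmic reticulum takes 3 further enzymes beside an elongase, and their genes did not move together. IFA38, the ketoacyl reductase gene, read 1921, 1959 and 2217 in the biofilm against 1108, 922 and 1173 in the bottom layer and was 1.90-fold higher (limma adjusted p = 0.000345). TSC13, the enoyl reductase gene, read 750, 696 and 524 in the biofilm against 1278, 1494 and 672 in the bottom layer and was lower (log2 fold change -0.73, limma adjusted p = 0.0352), although the groups overlapped. That call was lost without biofilm replicate 2 (adjusted p = 0.0580), biofilm replicate 3 (0.125), bottom layer replicate 1 (0.125) or bottom layer replicate 2 (0.104). PHS1, the dehydratase gene, read 2330, 2292 and 1762 in the biofilm against 1891, 2469 and 1209 in the bottom layer and did not pass (log2 fold change 0.24, limma adjusted p = 0.396).

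Among the genes for activating and carrying acyl chains FAA1 was lower, ACB1 was higher and FAA4 did not pass. FAA1, which encodes the main synthetase for fatty acids taken up from outside, read 832, 564 and 610 in the biofilm against 2317, 2620 and 1783 in the bottom layer. The groups were well apart and the fall was 3.30-fold (log2 fold change -1.72, SE 0.19, limma adjusted p = 2.95e-05). FAA4, its paralog with an overlapping role, read 545, 407 and 427 in the biofilm against 320, 415 and 268 in the bottom layer. The groups overlapped and it did not pass (log2 fold change 0.45, 95% interval 0.01 to 0.89, limma adjusted p = 0.0699). Without bottom layer replicate 2 it passed as higher (0.61, adjusted p = 0.0189). It did not pass with any other single array left out, at 0.31 without bottom layer replicate 3 (adjusted p = 0.185) and 0.33 without biofilm replicate 1 (0.241).

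The signals of the paralogs FAA1 and FAA4 were also set against each other within each array. FAA1 minus FAA4 was 0.60, 0.45 and 0.50 in the biofilm and 2.80, 2.61 and 2.66 in the bottom layer on the log2 scale. The shift of -2.17 (SE 0.069) corresponds to a 4.51-fold change in their ratio, with separate groups (exact permutation p = 0.1, the smallest possible, and 0.120 adjusted over the 6 pairs).

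Of the 3 other synthetase and import genes listed, FAA2 alone was bright enough to be tested. FAA2, whose product activates medium-length chains at the peroxisome, read 264, 210 and 183 in the biofilm against 490, 669 and 486 in the bottom layer, a 2.40-fold fall (limma adjusted p = 0.000261). FAA3 and the transporter gene FAT1, named here after their values were seen, read 90.9 ± 29.2 and 101 ± 13.7 in the biofilm against 24.4 ± 8.16 and 57.7 ± 1.65 in the bottom layer (SD, n = 3 each). With no filter on dim genes both passed as higher in the biofilm (log2 fold changes 1.39 and 0.66, limma adjusted p = 0.000673 and 0.00942), but the bottom layer signal of FAA3 was below the controls on 2 of 3 arrays.

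ACB1, whose product binds acyl-CoA in the cytosol and hands it to other enzymes, read 2965, 3272 and 3049 in the biofilm against 1587, 1868 and 1207 in the bottom layer. The groups were separate, and it was 2.01-fold higher (log2 fold change 1.01, SE 0.18, limma adjusted p = 0.000559). On their brightest probe sets FAS1, FAS2, ELO3, ACB1, OLE1 and FAA1 passed under each of the 16 alternative settings. Those settings leave aside the dimmer probe sets of FAS1 and FAS2, most of which read lower in the biofilm.

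Among genes that supply the carboxylase with substrate and with its cofactor biotin some were higher in the biofilm and some lower. Of 8 such genes 7 were tested, of which 5 were higher and 2 lower (median log2 fold change 0.88, beside 0.17 over all genes tested, of which 38.0% were higher and 24.4% lower). The acetyl-CoA synthetase genes went opposite ways. ACS2, the isoform known to be made on glucose, read 2537, 2052 and 2011 in the biofilm against 1223, 1213 and 1119 in the bottom layer, 1.84-fold higher (limma adjusted p = 0.000445). ACS1, the isoform made without glucose, was 4.11-fold lower, at 3179 ± 558 in the biofilm, against 13188 ± 2793 in the bottom layer (SD, n = 3 each, limma adjusted p = 1.47e-05).

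Biotin genes were higher with an exception. BIO3, for a step of biotin synthesis, read 527, 555 and 550 in the biofilm against 191, 123 and 149 in the bottom layer, 3.33-fold higher (limma adjusted p = 2.10e-05). The biotin uptake gene VHT1 was 2.32-fold and the synthesis gene BIO4 2.05-fold higher (limma adjusted p = 0.000322 and 0.000351). BIO2, the biotin synthase gene, was 1.55-fold higher, while BIO5, which encodes a transporter of a biotin precursor, was 1.48-fold lower (limma adjusted p = 0.0217 for each). The call of BIO2 was lost without biofilm replicate 1 (adjusted p = 0.101), bottom layer replicate 1 (0.0697) or bottom layer replicate 3 (0.0593), and that of BIO5 without biofilm replicate 2 (0.0870) or bottom layer replicate 1 (0.0927). BPL1, whose product attaches biotin to the carboxylase, was too dim to be tested at 107, 81.0 and 88.2 in the biofilm against 50.2, 47.4 and 61.5 in the bottom layer. With no filter on dim genes it passed as higher (log2 fold change 0.65, limma adjusted p = 0.0130). ACS2, BIO2, BIO5 and BPL1 were named after their values were seen.

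Mitochondria make fatty acids by a separate set of enzymes, among other things for lipoic acid. Of 8 genes 6 were tested, of which 2 were higher, 4 did not pass and 0 were lower in the limma fit (1 at an unadjusted p below 0.05), with a median log2 fold change of 0.31. A share of 2 in 6 called higher is near the 38.0% over all genes tested. HFA1, the mitochondrial counterpart of ACC1, read 153, 164 and 147 in the biofilm against 65.7, 59.6 and 71.5 in the bottom layer, 2.10-fold higher (limma adjusted p = 0.000192). CEM1, a ketoacyl synthase gene, was 1.40-fold higher (limma adjusted p = 0.0263), a call lost without biofilm replicate 2 (adjusted p = 0.0783), biofilm replicate 3 (0.0755), bottom layer replicate 1 (0.0874) or bottom layer replicate 2 (0.0564). MCT1, an acyl transferase gene, and ACP1, the acyl carrier gene, did not pass, with log2 fold changes of 0.44 and -0.46 (limma adjusted p = 0.0865 and 0.0714). MCT1 passed without biofilm replicate 2 (0.62, adjusted p = 0.0332) and ACP1 without bottom layer replicate 2 (-0.55, adjusted p = 0.0401). With any other single array left out each stayed uncalled.

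Regulators of the carboxylase and synthase genes were mostly dim or did not pass. Of 7 genes 4 were tested, 1 of them was lower, 3 did not pass and 0 were higher in the limma fit, also at an unadjusted p below 0.05 (median log2 fold change -0.14, beside 0.17 over all genes tested, of which 24.4% were lower). SNF1, whose kinase is known to inactivate the carboxylase by phosphorylation, read 101, 82.0 and 62.6 in the biofilm against 261, 325 and 234 in the bottom layer, 2.97-fold lower (limma adjusted p = 7.57e-05). INO4, which with INO2 encodes the activator of phospholipid and synthase genes, its repressor gene OPI1 and the general factor gene RAP1 had log2 fold changes of -0.15, -0.13 and 0.02 (limma adjusted p = 0.553, 0.578 and 0.944). ABF1 and REB1, general factors that bind the synthase promoters, were too dim to be tested, at 36.6 ± 12.2 and 20.4 ± 6.73 in the biofilm against 180 ± 81.7 and 71.4 ± 36.4 in the bottom layer (SD, n = 3 each). With no filter on dim genes ABF1 and REB1 passed as lower (log2 fold changes -1.84 and -1.21, limma adjusted p = 0.000361 and 0.00397). Both were named after their values were seen.

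Genes of fatty acid breakdown were lower in the biofilm or did not pass. Of 11 listed genes 9 were tested, of which 5 were lower and 4 did not pass in the limma fit (median log2 fold change -0.47), and all 9 log2 fold changes were negative, from -2.79 to -0.11. Over all genes tested 24.4% were lower and 62.5% were called in either direction. The 5 of 9 called lower is above the first share and below the second, and the list was not tested as a set. POX1, the acyl-CoA oxidase gene that starts peroxisomal breakdown, read 552, 420 and 477 in the biofilm against 1462, 1518 and 1412 in the bottom layer, 2.98-fold lower (limma adjusted p = 1.04e-05). FOX2, for the middle steps, and POT1, for the last, were 2.18-fold and 6.91-fold lower (limma adjusted p = 5.82e-05 and 7.43e-07). OAF1, an activator of these genes that responds to oleate, was 2.02-fold lower, at 172 ± 7.61 in the biofilm, against 364 ± 32.8 in the bottom layer (SD, n = 3 each, limma adjusted p = 0.000310).

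The 3 genes listed for hydroxylation and electron transport all passed, 2 as lower and 1 as higher, beside 62.5% called over all genes tested. SCS7, which hydroxylates the very long chains of sphingolipids, read 1735, 1925 and 1586 in the biofilm against 4101, 4128 and 4441 in the bottom layer, 2.41-fold lower (limma adjusted p = 3.38e-05). CYB5, the cytochrome b5 gene that supplies electrons to such oxygen-using enzymes, read 656, 366 and 339 in the biofilm against 801, 1832 and 692 in the bottom layer (log2 fold change -1.18, limma adjusted p = 0.0125). Bottom layer replicate 2 stood apart, and without it the log2 fold change was -0.76 (adjusted p = 0.0217), while without biofilm replicate 3 the call was lost (-1.01, adjusted p = 0.0522). NCP1, the reductase gene that feeds electrons to several of these enzymes, was 1.51-fold higher (limma adjusted p = 0.00717).

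Of the 50 genes in the 8 lists 11 were too dim to be tested. With no filter on dim genes 4 of these passed as higher in the biofilm, 5 as lower and 2 did not pass, beside 33.0% higher and 23.4% lower over all 5656 genes. The largest rise was that of HTD2, a dehydratase gene of mitochondrial fatty acid synthesis, named after its values were seen. It averaged 159 ± 15.5 in the biofilm, against 44.0 ± 0.66 in the bottom layer (SD, n = 3 each, log2 fold change 1.54, limma adjusted p = 3.82e-05), with 1 of 3 bottom layer arrays below the controls.

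**Figure D4:**
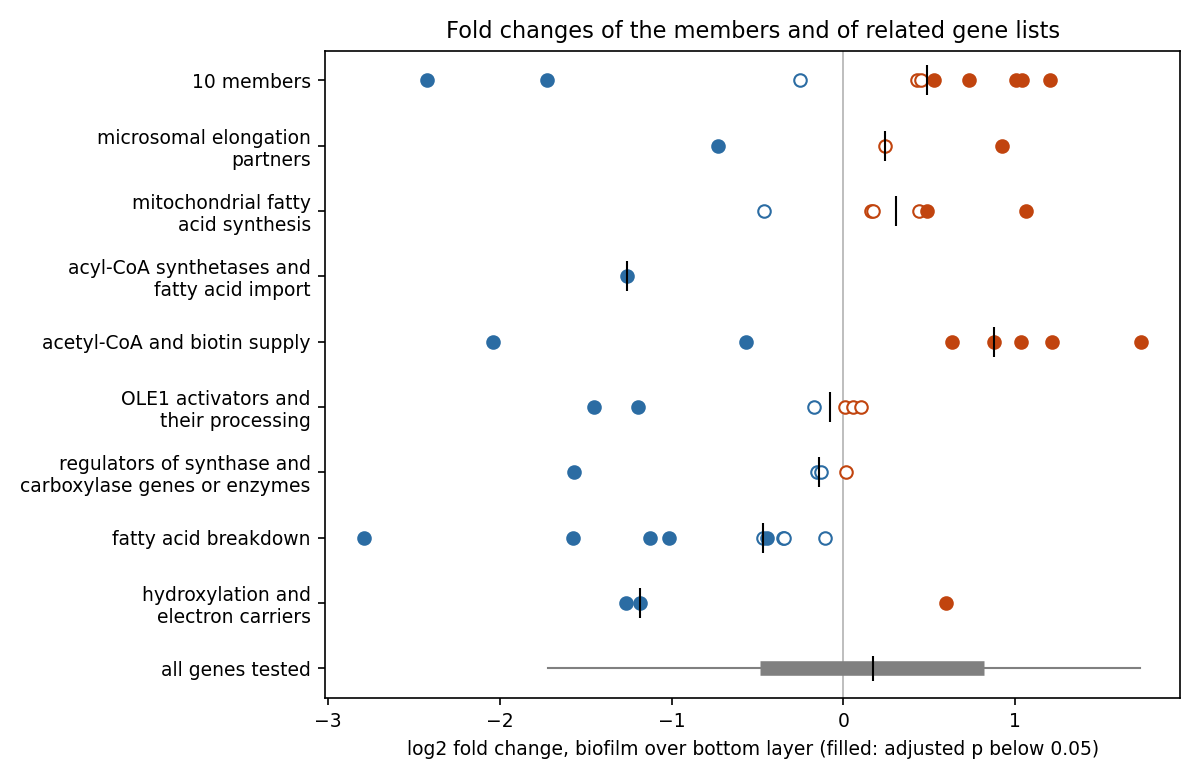
Log2 fold change (biofilm over bottom layer) of each tested gene among the 10 members and in 8 related lists, filled where the adjusted p was below 0.05, with the list median as a tick. The grey bar spans the interquartile range of all 4242 genes and the thin line their central 90%. OLE1 and FAA1 are the leftmost points of the members, and no tested gene of fatty acid breakdown lies to the right of 0.

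Genes with the profile most like that of OLE1 over the 6 arrays, by Euclidean distance between log2 values centred on each gene's mean, were ARG82 (distance 0.35), THI73 (0.36), BCY1 (0.36) and LEE1 (0.36). BCY1, the regulatory subunit gene of protein kinase A, averaged 1172 ± 154 in the biofilm, against 6790 ± 966 in the bottom layer (SD, n = 3 each). FAA1 was the nearest other member to OLE1, at rank 111 of the genes tested (distance 1.02). Nearest to FAS1 were NTG1 (0.20), CLU1 (0.22), YIL165C (0.25) and BOL3 (0.27), and FAS2 ranked 490 (0.66). All these likenesses are dominated by the size of the shift between groups and are given with no test.

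For most of the 10 members the bottom layer arrays varied more than the biofilm arrays. The coefficient of variation ran from 2.13% to 21.5% in the biofilm and from 10.8% to 34.2% in the bottom layer, and it was larger in the bottom layer for 8 of 10 members. FAS2 (11.3% in the biofilm, 10.8% in the bottom layer) and FAA1 (21.5% and 18.9%) went the other way. Bottom layer replicate 3 was the lowest of its group for 8 members and the highest for ACC1 and FAS1. The ACT1 control probe sets, which read the 3' and 5' ends of the actin mRNA, had 3' to 5' ratios of 1.54, 2.04 and 1.56 in the biofilm and 2.36, 1.80 and 3.84 in the bottom layer, highest on that same replicate (exact two-sided permutation p = 0.200 between groups). With this ratio as a covariate ELO1 passed as lower (log2 fold change -0.64, adjusted p = 0.0422), ELO3 stayed higher with a smaller change (0.80 in place of 1.20) and ACC1 with a larger one (0.80 in place of 0.53). It also moved TSC13 (-1.23 in place of -0.73), RSP5 (-2.14 in place of -1.45) and CYB5 (-1.84 in place of -1.18). The call of BIO2 was lost with this covariate (0.35 in place of 0.63, adjusted p = 0.212). ELO2 and FAA4, which had not passed, moved to 0.02 and 0.14 from 0.43 and 0.45. The part of RNA quality in these values beyond that fit was not tested.

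**Figure D5:**
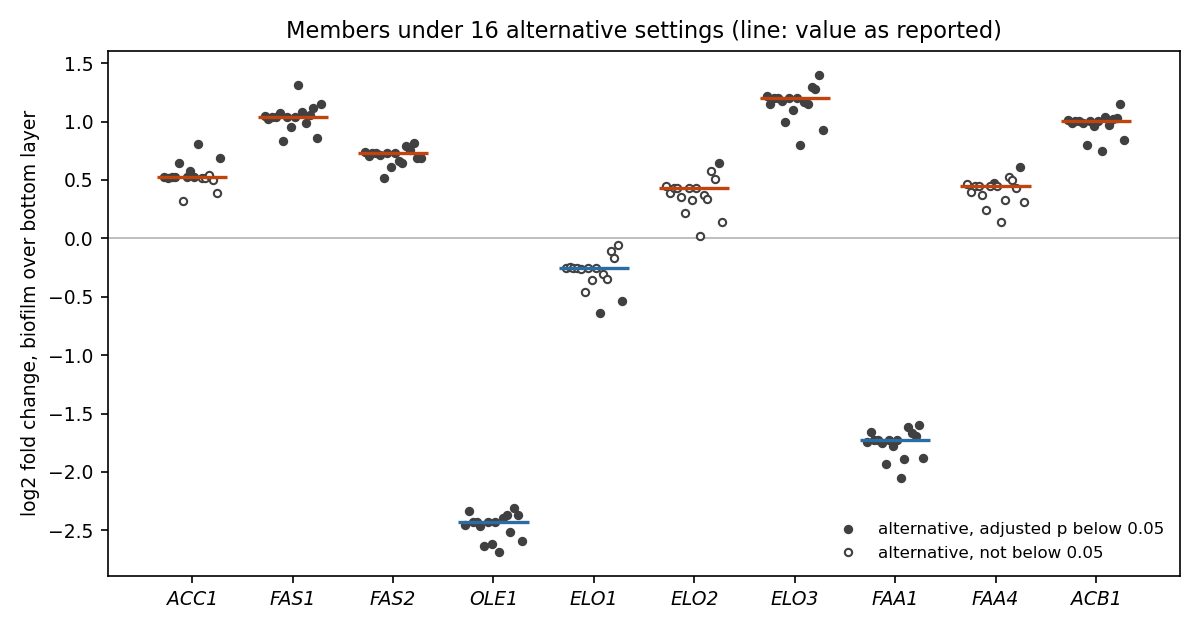
Log2 fold change (biofilm over bottom layer) of each of the 10 genes under 16 alternative settings (points, filled where the adjusted p was below 0.05) around the reported value (line). The points run in order from other pseudocounts at the left of each group to single arrays left out at the right. OLE1 ranges from -2.68 to -2.31, and ACC1 has 6 open points.

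Scaling sets the zero of these comparisons. Of all called genes 60.9% were higher in the biofilm with the scaling as deposited, and 49.0% were once each array had been centred on its median. The median change over the genes tested was 0.17 as deposited and -0.04 with centring (log2 scale). Under that centring ACC1 no longer passed (0.32, adjusted p = 0.274), and CEM1 (0.28, adjusted p = 0.216), NCP1 (0.39, adjusted p = 0.0840) and BIO2 (0.42, adjusted p = 0.0604) were lost as well. The remaining members kept their calls and directions.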

How the data were processed

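RNA of 3 biofilm and 3 bottom layer samples was amplified, labelled with biotin and read on Affymetrix arrays, per the labels' protocols. The authors deposited a linear signal intensity for each of 9335 probe sets, for which the submitters' processing notes name MAS5. The sources used here do not give its version or settings. With 2% of probe sets set aside at each end, all arrays had a mean of 500, so they had been scaled to a common mean, and a real shift of total mRNA would be hidden. Precision is limited by the number of arrays.

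Probe sets were named through the platform table, with symbols updated by gene identifier from the assembly R64 gene table. Of these 6504 paired with 1 gene, 328 with several and 2443 were not listed, and 60 were controls. The brightest set per gene was kept by its mean log2(signal + 16), and the dimmest 25% of 5656 genes were left out. The pseudocount of 16 understates folds of dim genes. The comparison was fitted with limma 3.58.1 (R 4.3.3), using lmFit and a variance trend in eBayes. Two-sided p-values were adjusted by Benjamini-Hochberg over 4242 genes, with a threshold of 0.05. The fit was tested on simulated data. Pairs of members were compared by exact permutation. Figures used matplotlib 3.10.9.

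The members, lists and alternatives were chosen with earlier results of these data known. Named genes were the 10 members, up to 4 genes per list by smallest p, and the 4 nearest profiles to OLE1 and to FAS1, except where the text says otherwise. Sequences of these genes were not used here. Same-numbered samples did not deviate together (correlations of -0.01, -0.09 and 0.16 over genes), so replicate numbers were not used as pairs.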

Additional observations from a re-analysis of the deposited data

How the results depend on the processing

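The counts of 5 members higher and 2 lower stayed within 4 to 6 and 2 to 3 over 16 settings: pseudocounts of 1 and 64, no filter or the dimmest 50% left out, quantile normalization, centring on the median, a fit with no variance trend, weighted arrays, a replicate block, the ACT1 ratio covariate and each array left out. With the replicate block, for which the labels give no ground, 1590 genes were higher and 1046 lower in place of 1613 and 1037, with 5 and 2 members. Leaving out single arrays gave 1450 to 1592 higher and 926 to 1080 lower. With array weights FAA4 passed as higher (0.47, adjusted p = 0.0153), MCT1 as higher (0.45, adjusted p = 0.0364) and ACP1 as lower (-0.41, adjusted p = 0.0261). STE3, LEU2 and LYS2 were not followed over these settings. No other gene named in the text and called in the fit of 4242 genes turned round under them on its brightest probe set. Genes with small changes that did not pass turned round under some: SPT23 (-0.045) with quantile normalization, SPT23 (-0.20), CDC48 (-0.11) and RAP1 (-0.19) under median centring, OPI1 (0.14) with array weights, and SPT23 (-0.24), PHS1 (-0.18) and RAP1 (-0.12) with the ACT1 covariate. With single arrays left out SPT23 ran from -0.088 to 0.13, PHS1 from -0.033 to 0.48, CDC48 from -0.044 to 0.23, INO4 from -0.35 to 0.022, OPI1 from -0.32 to 0.0088 and RAP1 from -0.064 to 0.11. The dimmer probe sets of FAS1 gave log2 fold changes of -2.13, -2.19, -2.12, -1.58, -0.93, -1.37 and -2.60. Those of FAS2 that were reversed gave -1.49, -0.35, -0.14, -0.43, -1.44 and -0.035. Of the shifts of OLE1 minus FAS1 read from the dimmer FAS1 sets 1 was reversed, at 0.18. The cause was not tested. Low signal over background limits the dim list genes and the 3 of the 14 dimmer sets that lay below the controls throughout a group. It also limits in part the other dimmer sets, except the brightest of each gene, with 1 or 2 arrays of a group below the controls.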
